A study of Mus musculus with 9 samples.

Results

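The genes described here encode the subunits of the 5 oxidative phosphorylation complexes. Members were taken by symbol: the mitochondrially encoded mt-Nd, mt-Co, mt-Atp and mt-Cytb genes, and the nuclear genes named as Nduf subunits (Nduf, then a, b, c, s or v, then a number), Sdha to Sdhd, and genes whose symbols begin with Uqcr, Cox4 to Cox8, or Atp5, without pseudogenes. This gave 96 of the 21939 genes in the table, 13 mitochondrially encoded (mt-encoded) and 83 nuclear. Complex I had 7 mt-encoded and 36 nuclear genes, complex II had 4 nuclear genes, complex III had 1 and 8, complex IV had 3 and 18, and complex V had 2 and 17. Complexes follow the symbols, so that Ndufa4, now known as a subunit of complex IV, is counted under complex I; counting it under complex IV moved no ratio below by more than the spread between replicates. A filter on low counts left 93 of the 96 for testing. The genes not tested were Cox7b2, Cox8b and Cox8c, tissue-restricted isoforms of complex IV subunits that were at or below 1.18 CPM (TMM-normalised CPM, a gene's counts scaled to library size) in all 9 libraries.

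Complexes I to IV pass electrons from NADH and succinate to oxygen, and complexes I, III and IV pump protons across the inner mitochondrial membrane. Complex V, the ATP synthase, uses the proton gradient to make ATP. Mitochondrial DNA encodes a few hydrophobic core subunits of complexes I, III, IV and V, whereas complex II is encoded wholly in the nucleus, so that 4 of the complexes are assembled from products of both genomes. Long-term haematopoietic stem cells (LT-HSCs) are known for low mitochondrial activity and reliance on glycolysis while they are quiescent.

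Bulk RNA-seq was run on LT-HSCs sorted from bone marrow of C57BL/6 mice by a Lin- Sca1+ cKit+ CD34- Flt3- gate. The groups were young control cells (mice aged 10 to 16 weeks), aged control cells (over 80 weeks) and aged cells given 100 µM Rhosin, which inhibits RhoA, a regulator of the actin cytoskeleton (aged+Ri), with 3 libraries each. Cells of all 3 groups, controls included, were held ex vivo for 16 h in HBSS with 10% serum at 37 °C, 3% oxygen and 5% CO2, so none was measured straight from the animal. The labels call the libraries biological replicates without giving the number of mice in each or tying an aged+Ri library to an aged one, and p-values reflect the spread between these libraries. The design implies 3 comparisons. These are aged against young (age), aged+Ri against aged (the inhibitor), and aged+Ri against young (age and inhibitor together). Any pair of these comparisons shares 1 group, so their values are given side by side only.

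Library totals ran from 34358101 to 72503142 estimated counts. Between 20308 and 21272 genes had a count in the young libraries, and between 15333 and 18288 in the aged and aged+Ri libraries. The Y-linked gene Ddx3y had 2577 counts in young 2, 6400 in young 3 and at most 1 elsewhere, and the labels give no sex. By the labels, sequencing batch 1 held aged 1, aged+Ri 1 and a share of young 1; batch 3 held the rest of young 1 with young 3 and aged 3; and batch 2 held young 2, aged 2, aged+Ri 2 and aged+Ri 3. All 11 HSC markers were present in each group, with summed levels of 1371 to 3283 CPM per library. Over all genes, 0.0331% were called in aged against young, 0% in aged+Ri against aged and 1.45% in aged+Ri against young (edgeR's quasi-likelihood test, Benjamini-Hochberg adjusted p under 0.05 over 15127 genes).

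The mt-encoded genes were lower in aged than in young cells and lower again in aged+Ri cells. For 13 of 13 genes the group means ran in the order young, aged, aged+Ri from high to low. Together they took 4.68%, 4.14% and 4.48% of the counts in young 1 to 3, 2.71%, 3.54% and 2.57% in aged 1 to 3, and 1.57%, 2.56% and 1.88% in aged+Ri 1 to 3. The 3 groups did not overlap in this share, although aged 3 and aged+Ri 2 nearly met, and as summed TMM-normalised CPM aged (23294 to 36669) and aged+Ri (16638 to 24653) overlapped. The 83 nuclear genes took 3.88%, 3.37% and 3.07% in the young libraries, 3.41%, 3.75% and 2.95% in the aged and 2.27%, 2.60% and 2.61% in the aged+Ri. Young and aged overlapped in the nuclear share, and the aged+Ri libraries lay below both; as summed CPM, aged+Ri (24008 to 28317) overlapped aged (26780 to 38911) and lay below young. In bulk samples, fewer cells that carry a transcript and less of that transcript per cell cannot be told apart.

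**Figure D1:**
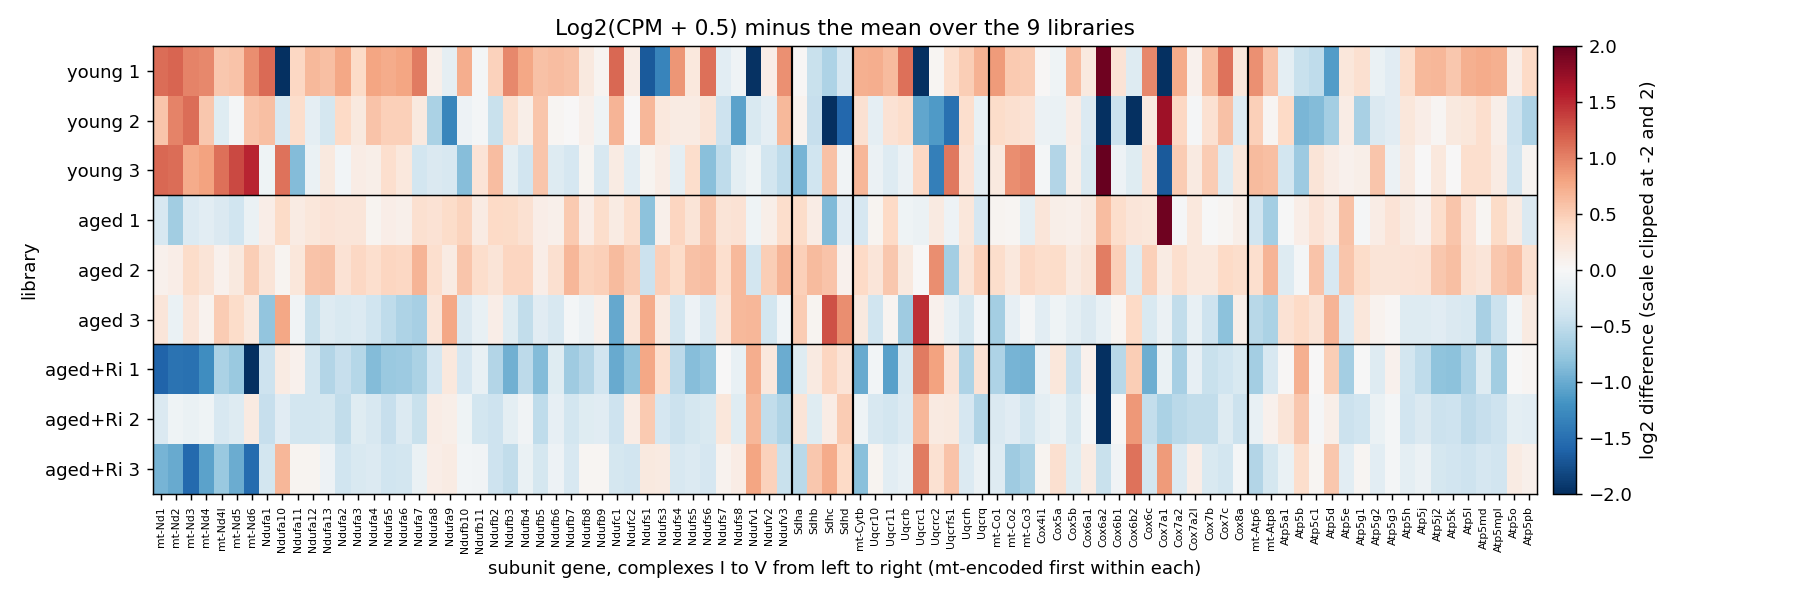
Log2(CPM + 0.5) of 91 subunit genes with a mean of at least 1 CPM, as the difference from the gene's mean over the 9 libraries, with libraries in rows and genes in columns from complex I at the left to complex V at the right (vertical lines part the complexes, and mt-encoded genes come first in each). Of the 13 mt-encoded genes, 13, 11 and 13 are above their mean (red) in young 1 to 3, and 2, 13 and 7 in aged 1 to 3. In aged+Ri 1 to 3, 13, 11 and 13 are below their mean (blue). Young 1 differs from the other young libraries in many nuclear genes.

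In aged against young, 0 of the 93 tested subunit genes were called by edgeR, where 0.0331% of all genes were called; at an unadjusted p under 0.05 there were 8 nuclear genes higher (6.09% of all genes) and 5 mt-encoded genes lower (10.1%), DESeq2 called 1 mt-encoded gene (and 4.92% of all genes), and limma-voom called 0 (and 0.119% of all genes). The mt-encoded genes nevertheless lay on one side: 13 of 13 had a log2 change below 0 with a median of -0.64, while 54.7% of all genes were below 0 with a median of -0.13. The 80 tested nuclear genes had a median of 0.04, with 46 above 0 (45.3% of all genes), and with DESeq2's size factors this count was 34. Over the 3602 genes above 50 CPM on average the median was 0.05, near that of the nuclear subunit genes. Without overlap of the groups, 13 nuclear genes were higher (8.58% of all genes), and 7 mt-encoded and 5 nuclear genes were lower (16.1%). In aged+Ri against aged, edgeR, DESeq2 and limma-voom each called 0 subunit genes (0%, 2.12% and 0.364% of all genes), with 18 lower (4.89% of all genes) and 0 higher (4.24%) at an unadjusted p under 0.05. Here 13 of 13 mt-encoded genes were below 0, with a median of -0.70. So were 67 of 80 nuclear genes, with a median of -0.36, against 52.8% and -0.06 over all genes. The genes above 50 CPM had a median of 0.05. The other 13 nuclear genes were above 0 (47.2% of all genes). Without overlap, 3 mt-encoded and 24 nuclear genes were lower (8.66% of all genes) and 3 nuclear genes were higher (7.87%). Without aged 2, mt-Atp6 (0.010) and mt-Atp8 (0.47) were above 0 and the mt-encoded median was -0.54.

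In aged+Ri against young, 6 of the 93 subunit genes were called, where 1.45% of all genes were called. The 5 that fell were mt-encoded (0.489% of all genes were called lower), and the 1 that rose was the nuclear gene Atp5b (0.959% were called higher). This split by genome was not kept by the other tools. DESeq2 called 10 mt-encoded and 13 nuclear genes lower and 1 nuclear gene higher (12.1% of all genes called). In limma-voom, 11 mt-encoded and 5 nuclear genes were lower and 2 nuclear genes higher (4.26%). With DESeq2's size factors in edgeR, Ndufb5 was called lower and Atp5b was not called. The median log2 change was -1.25 for the 13 mt-encoded genes, which were all below 0. It was -0.32 for the nuclear genes, of which 54 of 80 were below 0 (57.4% of all genes) and 26 above 0 (42.6%). Over all genes the median was -0.24, and over the genes above 50 CPM it was 0.09. At an unadjusted p under 0.05, 12 mt-encoded and 29 nuclear genes were lower (14.4% of all genes) and 7 nuclear genes were higher (9.06%). In 12 of 13 mt-encoded genes the aged+Ri libraries lay below the young libraries without overlap, as they did in 27 nuclear genes, a pattern seen in 19.9% of all genes, and 10 nuclear genes were higher without overlap (12.4%). The count of 6 rested on most of the libraries, and the count over all genes, 219 in the main fit, changed too. The subunit count was 0 without young 1, aged+Ri 1 or aged+Ri 3, or with only the 2 groups in the fit. Over all genes those fits called 109, 34, 18 and 57. The subunit count was 2 without young 2, aged 1 or aged 2 (192, 113 and 121 over all genes). It was 4 without young 3, aged 3 or aged+Ri 2 (532, 132 and 197) and 3 with sequencing batch in the model (190). It was 18 in limma-voom (4.26% of all genes) and 24 in DESeq2 (12.1%).

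Of the 7 mt-encoded complex I genes, which form the proton-pumping membrane arm, mt-Nd1, mt-Nd2 and mt-Nd4 were among the genes called. mt-Nd1 (chrM:2751-3707, plus strand, GRCm38) stood at 2531, 1720 and 2609 CPM in young 1 to 3, at 937, 1238 and 1393 CPM in aged 1 to 3, and at 387, 961 and 612 CPM in aged+Ri 1 to 3. Young lay above both other groups, and aged and aged+Ri overlapped only through aged+Ri 2. Its log2 change was -0.94 ± 0.33 (SE) in aged against young (edgeR adjusted p 0.221), -0.86 ± 0.33 in aged+Ri against aged (0.463) and -1.81 ± 0.34 in aged+Ri against young (0.0247). mt-Nd2 (chrM:3914-4951, plus strand) was at 1287, 1150 and 1248 CPM in young, at 354, 629 and 522 CPM in aged, and at 207, 542 and 285 CPM in aged+Ri cells. The young libraries were tightly grouped, at 1228 ± 70.3 CPM (SD, n = 3), and all 6 libraries from aged mice were below them. In aged against young its log2 change of -1.29 ± 0.35 was the lowest of the mt-encoded genes (edgeR adjusted p 0.176), followed by -0.54 ± 0.35 in aged+Ri against aged (0.695) and -1.83 ± 0.36 in aged+Ri against young (0.0283).

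mt-Nd4 (chrM:10167-11544, plus strand) was at 3034, 2275 and 2730 CPM in young, at 1355, 1864 and 1641 CPM in aged and at 660, 1478 and 743 CPM in aged+Ri libraries. Its pattern was that of mt-Nd1, with aged+Ri 2 inside the aged range, and it fell by 1.48 ± 0.31 on the log2 scale in aged+Ri against young (edgeR adjusted p 0.0384). mt-Nd6, the only subunit gene on the minus strand of mitochondrial DNA, where reads of both strands cannot be told apart in these libraries, was at 666, 514 and 1003 CPM in young, 319, 495 and 402 CPM in aged and 76.4, 396 and 120 CPM in aged+Ri cells. Its log2 change in aged+Ri against young was -1.88 ± 0.51 and did not pass (edgeR adjusted p 0.0759), nor did that of mt-Nd3, at -1.88 ± 0.51 (0.0759). mt-Nd5 had -1.36 ± 0.36 (edgeR adjusted p 0.0738) and mt-Nd4l, the scarcest of the 13 genes per length, -1.15 ± 0.52 (0.202). Aged+Ri 2 was the highest of the 3 aged+Ri libraries for 7 of these 7 genes.

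mt-Cytb, the haem-carrying cytochrome b at the centre of complex III, was at 4098, 3072 and 3941 CPM in young, 1969, 3289 and 2842 CPM in aged and 1244, 2339 and 1389 CPM in aged+Ri libraries. Aged 2 reached into the young range, and the log2 change in aged+Ri against young was -1.16 ± 0.29 (edgeR adjusted p 0.0663).

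In complex IV, mt-Co1 to mt-Co3 form the catalytic core that reduces oxygen. mt-Co1 was the most abundant member on the CPM scale and per kilobase of transcript (9351 CPM per kb over all libraries). It was at 24625, 17721 and 15664 CPM in young, at 14285, 17547 and 8573 CPM in aged and at 8877, 11242 and 11492 CPM in aged+Ri cells. Young and aged overlapped, and the log2 change in aged+Ri against young of -0.88 ± 0.28 did not pass (edgeR adjusted p 0.102). mt-Co2 (chrM:7013-7696) was at 2087, 1824 and 2770 CPM in young, 1502, 1691 and 1296 CPM in aged and 764, 1243 and 886 CPM in aged+Ri cells, so that the 3 groups did not overlap. It fell by 1.21 ± 0.27 on the log2 scale in aged+Ri against young (edgeR adjusted p 0.0454). mt-Co3 (chrM:8607-9390) was at 4782, 4108 and 6614 CPM in young, 2933, 4510 and 3277 CPM in aged and 1747, 2624 and 2168 CPM in aged+Ri cells. Aged 2 reached the young range and aged+Ri lay below both groups, with a fall of 1.25 ± 0.27 on the log2 scale against young (edgeR adjusted p 0.0415).

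mt-Atp6 and mt-Atp8 encode membrane subunits of complex V. They lie on 1 bicistronic transcript and their reading frames overlap by 43 bases, so counts there cannot be given to 1 gene with certainty. The overlap is shown because these were the mt-encoded genes that differed least between aged+Ri and aged cells; it lies at chrM:7927-7969 (GRCm38, plus strand), and the capitals mark the start codon of mt-Atp6.
mt-Atp8/mt-Atp6 overlap: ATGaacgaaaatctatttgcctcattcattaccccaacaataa
mt-Atp6 was at 6280, 4607 and 5126 CPM in young, 2541, 4215 and 2261 CPM in aged and 2069, 2981 and 2222 CPM in aged+Ri cells. Young stood above both groups, and the log2 change was -0.83 ± 0.28 in aged against young (edgeR adjusted p 0.213) and -1.14 ± 0.28 in aged+Ri against young (0.0593). mt-Atp8 was at 329, 228 and 338 CPM in young, 139, 354 and 143 CPM in aged and 177, 235 and 174 CPM in aged+Ri libraries, and it was the 1 mt-encoded gene in which aged+Ri and young overlapped.

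**Figure D2:**
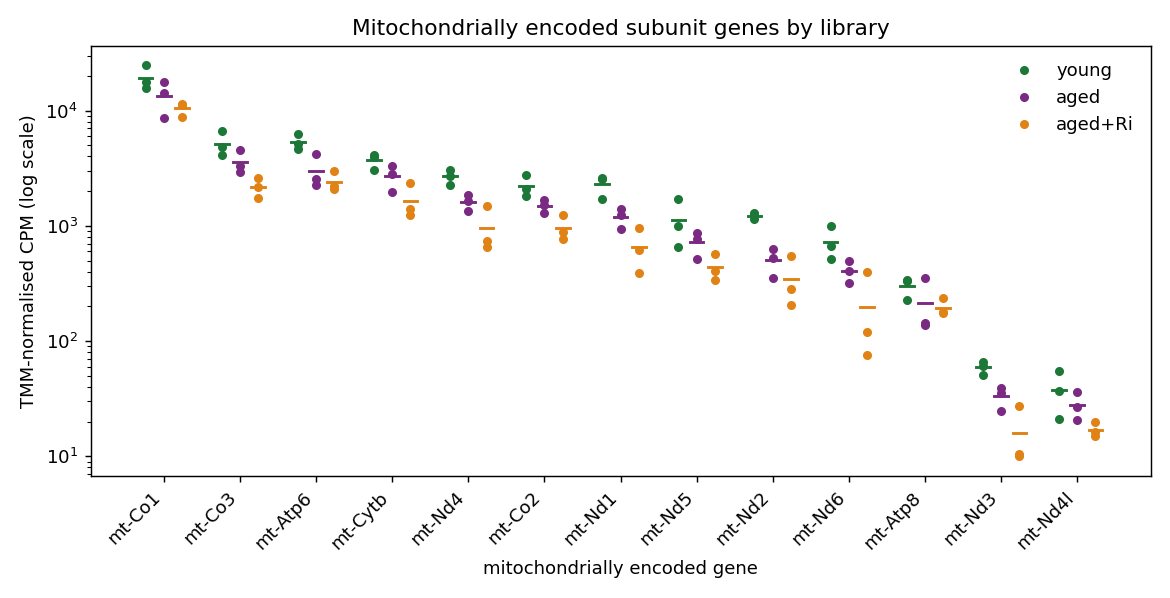
TMM-normalised CPM (log axis) of the 13 mt-encoded genes, ordered by mean level, with 1 point per library and a bar at each group mean. In each gene the bar of the young group is the highest and that of aged+Ri the lowest, and for mt-Nd1, mt-Nd4, mt-Nd3 and mt-Nd6 1 aged+Ri point (aged+Ri 2) lies well above the other two.

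Per kilobase of transcript, the 5 highest subunit genes were mt-encoded: mt-Co1, then mt-Atp6 (5270 CPM per kb), mt-Co3 (4643), mt-Cytb (2349) and mt-Co2 (2284). The highest nuclear gene was Ndufa7, an accessory subunit of complex I, at 2059 CPM per kb. mt-Nd3 (104 CPM per kb) and mt-Nd4l (92.5) ranked 75 and 78 of the 96.

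Within sequencing batches, each group has 1 or 2 libraries, and differences are given without a test. In batch 2, 8 of 13 mt-encoded genes were lower in aged 2 than in young 2, with a median log2 difference of -0.05, and in batch 3 the count for aged 3 against young 3 was 13 of 13, with a median of -0.95. The 2 pairs thus gave different sizes for age. In aged+Ri against aged, the medians were -0.75 in batch 1 (12 of 13 lower) and -0.81 in batch 2 (13 of 13). Young 1, which spans batches 1 and 3, was left out of these comparisons. For aged+Ri against young, only batch 2 then held both groups, and there 13 of 13 were lower, with a median of -0.80. mt-Nd2 was lower in each of these 5 within-batch comparisons, by log2 differences from -1.55 to -0.68, and mt-Co3 was higher in aged 2 than in young 2, by 0.13.

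Dividing the mt-encoded by the nuclear counts of the same complexes gives a ratio in which library scaling cancels. Over complexes I, III, IV and V it was 1.22, 1.25 and 1.49 in young 1 to 3, 0.814, 0.970 and 0.911 in aged 1 to 3, and 0.720, 1.02 and 0.751 in aged+Ri 1 to 3. Young lay above both groups, while aged and aged+Ri overlapped. The difference of mean log2 ratios was -0.55 in aged against young, -0.13 in aged+Ri against aged and -0.68 in aged+Ri against young. As a mean of log2 levels over genes instead of a sum of counts, which gives scarce genes the same weight as mt-Co1, these differences were -0.81, -0.35 and -1.16. The ratio was lower in each within-batch comparison too, by -0.36 and -0.71 for age, -0.18 and -0.15 for the inhibitor, and -0.51 for aged+Ri against young.

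The ratio was steadiest among young libraries in complexes IV and V. In complex IV it was 3.76 ± 0.0229 (SD, n = 3) in young, 2.83 ± 0.266 in aged and 2.62 ± 0.366 in aged+Ri cells. In complex V it was 0.775 ± 0.00992 in young, 0.428 ± 0.101 in aged and 0.448 ± 0.101 in aged+Ri cells. Both complexes placed all 3 young libraries above all 6 libraries from aged mice, and aged and aged+Ri overlapped. In complex I it was 0.542 ± 0.178 in young, 0.312 ± 0.104 in aged and 0.241 ± 0.109 in aged+Ri cells, with young above both, although aged 3 (0.428) came close to young 2 (0.438). In complex III, with mt-Cytb as the only mt-encoded gene, the ratio was 1.01 ± 0.214, 0.841 ± 0.218 and 0.601 ± 0.253, and the 3 groups overlapped. In aged+Ri against aged the ratio in complex V differed by 0.07 on the log2 scale, against -0.41 in complex I and -0.53 in complex III, and whether complexes differed in this was not tested.

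**Figure D3:**
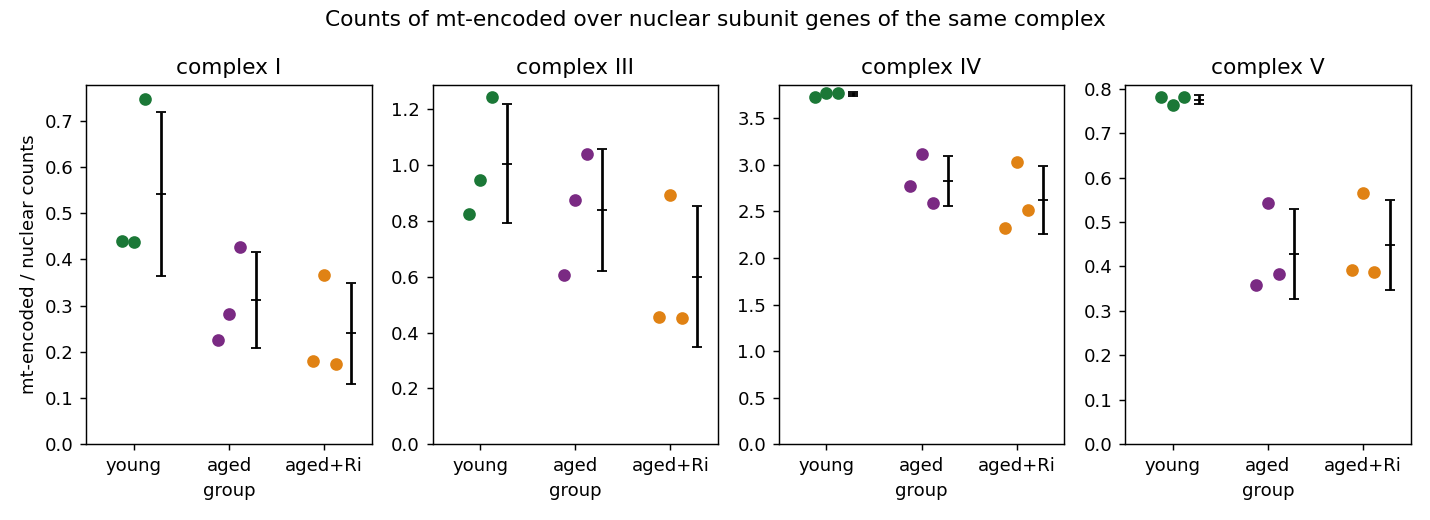
Ratio of summed mt-encoded to summed nuclear counts of the same complex in each library (points), with group mean and SD (bars, n = 3), for the 4 complexes that hold genes of both genomes. The young points of complexes IV and V sit in narrow bands (3.73 to 3.77 and 0.764 to 0.782) above all points from aged mice.

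Among nuclear genes of complex I, the catalytic core subunits and the accessory subunits lay on different sides in aged+Ri against young. The 7 nuclear core genes, Ndufs8 and Ndufv1 among them, which carry the flavin and the iron-sulphur clusters or line the quinone site, were above 0 in 6 of 7 cases there, with a median log2 change of 0.32. Of the 29 accessory genes, 26 were below 0, with a median of -0.61. The grouping by role was made after values had been seen. Ndufv1, which binds NADH, was at 19.5, 63.1 and 74.0 CPM in young, 73.9, 60.8 and 124 CPM in aged and 130, 124 and 135 CPM in aged+Ri cells. Aged+Ri lay above the other groups, by a small margin over aged 3, and the log2 change against young was 1.31 ± 0.46 (edgeR adjusted p 0.126).

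Ndufs8, a core subunit with iron-sulphur clusters, had the smallest p of the nuclear complex I genes for age. It was at 343, 174 and 317 CPM in young, 443, 571 and 571 CPM in aged and 329, 307 and 403 CPM in aged+Ri cells. Only the aged libraries stood apart, with log2 changes of 0.93 ± 0.30 in aged against young (edgeR adjusted p 0.21) and -0.61 ± 0.30 in aged+Ri against aged (0.583). In aged+Ri against aged, 29 of 29 accessory genes were below 0, with a median of -0.52, and 28 or 29 of 29 were so under each of the 18 alternative settings; the core genes were on the same side, with 5 of 7 below 0 and a median of -0.17. Ndufb7, an accessory gene of the membrane arm, was at 432, 290 and 230 CPM in young, 416, 460 and 282 CPM in aged and 177, 223 and 232 CPM in aged+Ri cells. Aged+Ri lay below aged without overlap, at -0.87 ± 0.31 (edgeR adjusted p 0.434).

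Ndufb5, a membrane-arm accessory gene, came nearest to the threshold among nuclear genes that were lower. It was at 501, 494 and 490 CPM in young, 366, 369 and 287 CPM in aged and 184, 235 and 261 CPM in aged+Ri cells, and the 3 groups did not overlap. Its log2 change was -0.54 ± 0.26 in aged against young (edgeR adjusted p 0.323), -0.59 ± 0.26 in aged+Ri against aged (0.518) and -1.13 ± 0.26 in aged+Ri against young (0.0522). Ndufb5 overlaps Mrpl47 on the other strand in exons, and without strand the reads there cannot be told apart. Ndufc1, a small membrane-arm subunit, had the lowest change of the nuclear complex I genes in aged+Ri against young, at -1.28 ± 0.40 (edgeR adjusted p 0.1).

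All 4 genes of complex II, which oxidises succinate in the citric acid cycle and feeds ubiquinone, were above 0 in aged against young, with a median log2 change of 0.81. Sdhb, the iron-sulphur subunit, was at 271, 267 and 278 CPM in young, 407, 570 and 381 CPM in aged and 417, 311 and 533 CPM in aged+Ri cells. The young libraries were below all others, and the changes were 0.74 ± 0.29 for age (edgeR adjusted p 0.249) and 0.63 ± 0.29 in aged+Ri against young (0.206). Sdha, the flavoprotein, was at 120, 124 and 61.9 CPM in young, 152, 164 and 169 CPM in aged and 100, 142 and 81.1 CPM in aged+Ri cells, so that only aged stood apart. The membrane anchors Sdhc and Sdhd had changes for age of 0.91 ± 0.61 (edgeR adjusted p 0.474) and 0.88 ± 0.40 (0.303). The summed level of the 4 genes was 604 ± 110 CPM in young, 1041 ± 217 in aged and 952 ± 105 in aged+Ri cells (SD, n = 3), with young below both other groups. The 4 of 4 held for age under each of the 18 alternatives, while in aged+Ri against young Sdha (0.08) turned below 0 in limma-voom, with sequencing batch in the model, without young 3 and without aged+Ri 2.

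Complex III resembled complex I in the split by role. The large nuclear subunits Uqcrc1, Uqcrc2 and Uqcrfs1 (both core proteins and the Rieske iron-sulphur protein) were above 0 in 3 of 3 cases in aged+Ri against young, with a median log2 change of 1.15, and with DESeq2's size factors in 2 of 3. The 5 small subunits were below 0 in 5 of 5, with a median of -0.78, and in 4 of 5 without young 1. Uqcrc1 was at 10.4, 57.3 and 159 CPM in young, 109, 119 and 327 CPM in aged and 244, 188 and 246 CPM in aged+Ri cells. Young 1 was far below all other libraries, and the change in aged+Ri against young was 1.58 ± 0.74 (edgeR adjusted p 0.223). Uqcrc2 was at 105, 46.6 and 39.3 CPM in young, 116, 197 and 108 CPM in aged and 179, 117 and 127 CPM in aged+Ri cells, at 1.14 ± 0.42 for age (edgeR adjusted p 0.236) and 1.15 ± 0.42 in aged+Ri against young (0.138). Young lay below both groups by a small margin, and Uqcrc2 overlaps exons of Pdzd9 on the other strand. Uqcrfs1 was instead lower in aged (168 ± 35.3 CPM) than in aged+Ri cells (262 ± 37.0), with young spread from 72.7 to 428 CPM. Uqcrb, the small subunit with the highest level per length, was at 1764, 1054 and 762 CPM in young, 781, 943 and 502 CPM in aged and 660, 684 and 745 CPM in aged+Ri cells.

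Nuclear genes of complex IV were read by isoform, and tissue-restricted forms lay on both sides in aged+Ri against young. The ubiquitous Cox4i1 was near the same level in all groups, at 916 ± 45.8, 1048 ± 204 and 893 ± 82.1 CPM in young, aged and aged+Ri cells, and its isoform Cox4i2 did not exceed 0.622 CPM in any library. Cox7a1, Cox7b2, Cox8b and Cox8c, isoforms restricted to muscle, testis or other tissues, were at most 8.84 CPM. Cox6a2, the heart and muscle form of Cox6a1, was at 80.7, 4.51 and 328 CPM in young, 31.7, 42.6 and 18.6 CPM in aged and 3.00, 3.80 and 14.9 CPM in aged+Ri cells. Young 2 lay near the range of aged+Ri, the change against young of -4.25 ± 1.21 did not pass (edgeR adjusted p 0.0906), and Cox6a2 overlaps exons of Itgad on the other strand. Cox6b2, described as a testis form, was at 26.7, 5.97 and 26.9 CPM in young, 37.7, 26.5 and 42.1 CPM in aged and 45.3, 58.8 and 68.1 CPM in aged+Ri cells. Aged+Ri lay above both other groups, at 1.53 ± 0.56 against young (edgeR adjusted p 0.134).

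Of the 11 nuclear complex IV genes that are not tissue isoforms, 9 were below 0 in aged+Ri against young, with a median of -0.33. Cox7a2 was at 1004, 806 and 852 CPM in young, 589, 758 and 426 CPM in aged and 381, 416 and 496 CPM in aged+Ri cells. Young stood above both other groups, and the change in aged+Ri against young was -1.04 ± 0.28 (edgeR adjusted p 0.073). Cox6c was at 1122, 652 and 708 CPM in young, 678, 802 and 467 CPM in aged and 292, 414 and 446 CPM in aged+Ri cells, with aged+Ri below the other groups, at -1.11 ± 0.31 against young (edgeR adjusted p 0.0833).

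**Figure D4:**
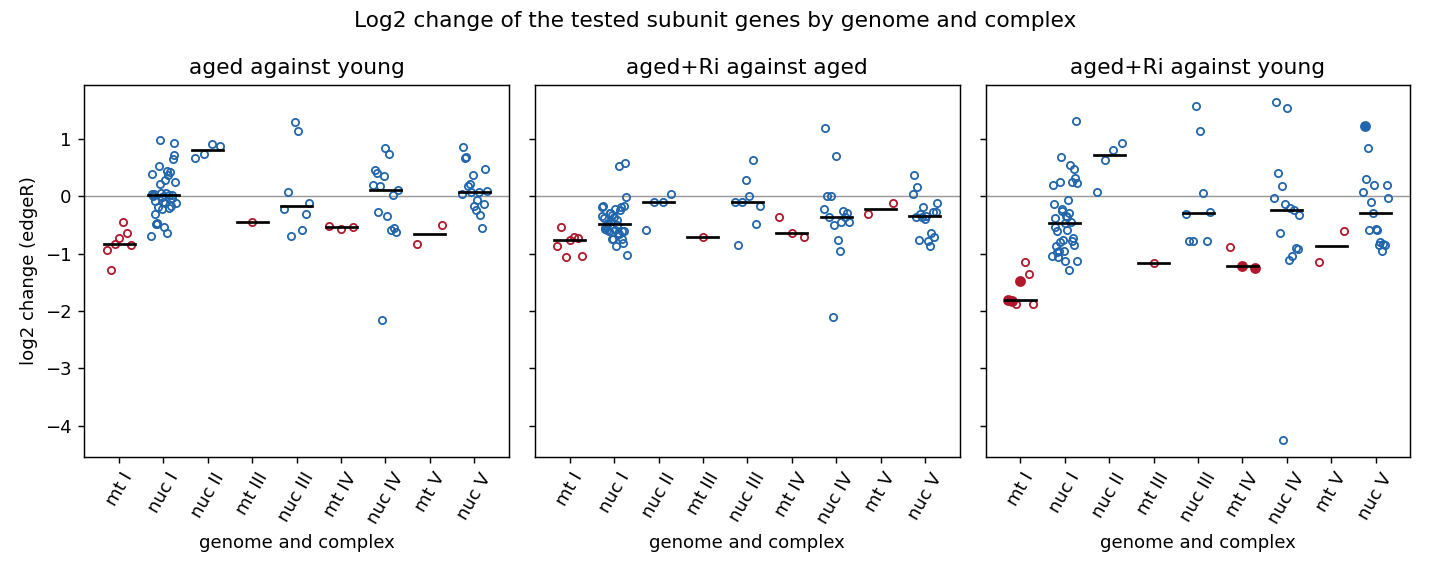
Log2 change (edgeR) of the 93 tested subunit genes in the 3 comparisons, by genome (red, mt-encoded; blue, nuclear) and complex, with a bar at each median and filled points for genes called at an adjusted p under 0.05. The mt-encoded points lie below 0 in each panel, the 4 complex II points lie above 0 in both comparisons with young, and the filled points are 5 mt-encoded genes and Atp5b in aged+Ri against young.

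In complex V, Atp5b was the 1 nuclear gene called in the main edgeR fit. It encodes the beta subunit, which holds the catalytic sites of the F1 head. Atp5b (chr10:128083273-128090391, plus strand, GRCm38) was at 230, 166 and 189 CPM in young, 342, 305 and 412 CPM in aged and 511, 456 and 398 CPM in aged+Ri cells. Young lay below all other libraries, and aged and aged+Ri overlapped through aged 3. The log2 change was 0.86 ± 0.27 in aged against young (edgeR adjusted p 0.205), 0.36 ± 0.27 in aged+Ri against aged (0.76) and 1.22 ± 0.27 in aged+Ri against young (0.0451). Atp5b was higher in the within-batch comparisons as well, by 0.87 and 1.12 for age, 0.58 and 0.48 for the inhibitor and 1.35 for aged+Ri against young.

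The other F1 genes were Atp5a1, Atp5c1, Atp5d and Atp5e. In aged against young 5 of 5 F1 genes were above 0, with a median of 0.67, and 4 of 5 with DESeq2's size factors; in aged+Ri against young 4 of 5 were, with a median of 0.30. The exception was Atp5e, the shortest of them, at -0.58 ± 0.30 (edgeR adjusted p 0.259; named after its values were seen). The 5 small membrane subunits (Atp5k, Atp5j2, Atp5l, Atp5mpl and Atp5md), which bind at the dimer interface and the membrane sector, were below 0 in 5 of 5 cases in aged+Ri against young, with a median of -0.84, and in 5 of 5 in aged+Ri against aged, with a median of -0.72. Both counts held under each of the 18 alternatives. Atp5l was at 566, 404 and 436 CPM in young, 418, 426 and 277 CPM in aged and 224, 241 and 258 CPM in aged+Ri cells. Aged+Ri lay below both groups, at -0.96 ± 0.28 against young (edgeR adjusted p 0.0876). The c-ring genes Atp5g1, Atp5g2 and Atp5g3, which encode the same mature protein, had changes of -0.10 ± 0.30, -0.30 ± 0.33 and 0.20 ± 0.24 in that comparison.

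The promoters of Atp5b and Ndufb5 are shown as the nuclear gene called higher and the nuclear gene nearest to the threshold among those lower, in the main edgeR fit. They are the 250 bases before the gene start in RefSeq, of GRCm38.p6, at chr10:128083057-128083306 and chr3:32736813-32737062, both on the plus strand. Capitals mark matches on either strand to CCAAT and to the GC box GGGCGG.
Atp5b promoter: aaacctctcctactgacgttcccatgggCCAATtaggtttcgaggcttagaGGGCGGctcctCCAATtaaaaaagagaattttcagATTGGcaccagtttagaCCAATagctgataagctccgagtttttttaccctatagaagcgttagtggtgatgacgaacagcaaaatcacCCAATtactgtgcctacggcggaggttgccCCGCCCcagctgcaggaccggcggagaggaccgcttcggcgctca
Ndufb5 promoter: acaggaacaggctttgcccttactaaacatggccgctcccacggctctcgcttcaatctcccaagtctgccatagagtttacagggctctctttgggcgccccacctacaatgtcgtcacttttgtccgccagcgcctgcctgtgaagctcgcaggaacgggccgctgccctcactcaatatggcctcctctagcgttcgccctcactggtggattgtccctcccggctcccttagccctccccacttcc
The Atp5b window held 5 CCAAT matches and 2 GC boxes, and the Ndufb5 window held none of the 6 motifs searched.

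RefSeq promoter windows of 300 bases (250 before the start to 50 after it) were found for 68 of the 83 nuclear genes. On both strands, the NRF1 core motif CGCATGCG was present in 8 of 68 (11.8%), against 1.91% of 27025 promoters, the ETS motif CCGGAAG in 16 (23.5% against 9.12%) and the YY1 motif AAGATGGC in 9 (13.2% against 2.88%). NRF1, ETS-family GABP and YY1 are known regulators of nuclear respiratory genes. CCAAT was present in 30 (44.1% against 37.9%), GGGCGG in 28 (41.2% against 35.9%) and TATAAA in 8 (11.8% against 14.2%). These shares describe letters in the windows, and no motif contains another.

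Among nuclear genes, transcript length went with the direction of the change. The tested nuclear genes ranged from 371 nt (Atp5k) to 4715 nt (Atp5g1), and 32 of 80 were at most 700 nt long. These 32 had median log2 changes of -0.06 in aged against young, -0.48 in aged+Ri against aged (29 lower) and -0.67 in aged+Ri against young (28 lower). The 24 nuclear genes between 1000 and 2000 nt had 0.17, -0.21 and 0.14. Other genes above 50 CPM on average showed the same order of these 2 length classes, but not over the whole range: the 142 of at most 700 nt had -0.13, -0.39 and -0.50, the 978 between 1000 and 2000 nt had 0.37, 0.09 and 0.47, and the 912 over 4000 nt had -0.32, 0.11 and -0.24. In nuclear subunit genes, Spearman's rho of length and log2 change was 0.26, 0.35 and 0.38 (80 genes, not independent, from the same libraries), and in the 3476 other genes it was -0.37, 0.16 and -0.17. The part of transcript length in the difference between core and accessory genes was not tested.

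**Figure D5:**
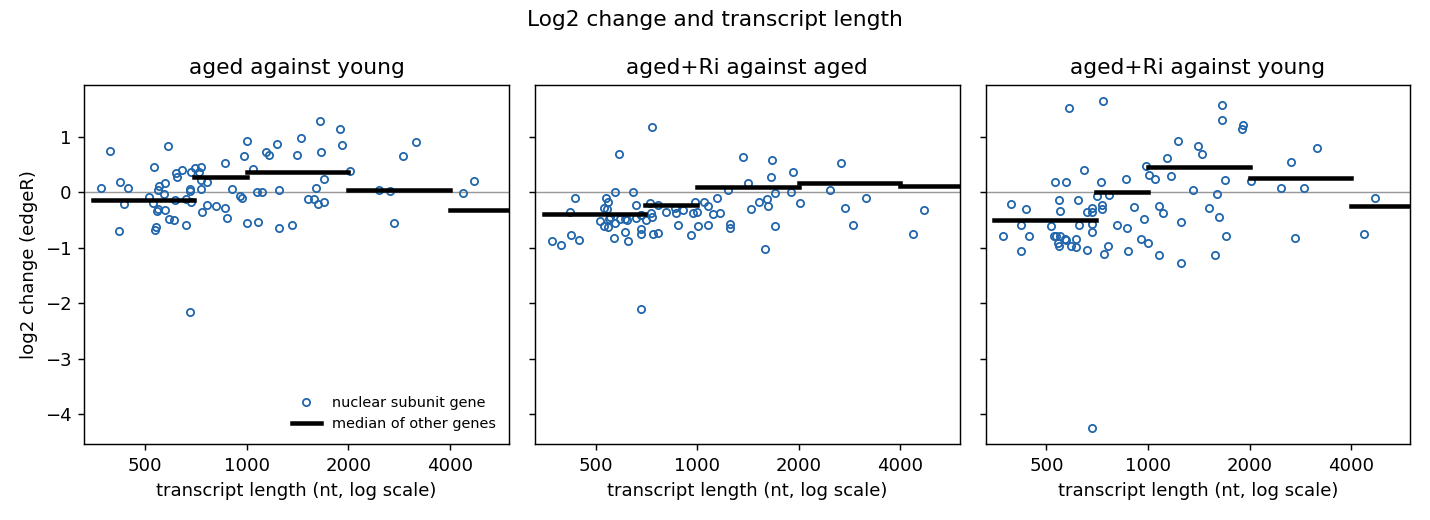
Log2 change of the 80 tested nuclear subunit genes (circles) against transcript length in nucleotides (log axis) in the 3 comparisons, with black bars for the median of other genes above 50 CPM in 5 length classes. Circles at most 700 nt long lie mostly below 0 in both comparisons with aged+Ri, as do the bars of that class.

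Markers of other cell types differed between the groups beside these changes. The 9 erythroid markers summed to 47.0 to 765 CPM in young, 14.9 to 73.4 CPM in aged and 722 to 1526 CPM in aged+Ri libraries, mostly from the alpha-globin genes Hba-a1 and Hba-a2, with 2 markers at 0 in all 3 aged+Ri libraries. Other erythroid markers did not share the rise over young. Mean CPM in young, aged and aged+Ri cells was 58.5, 3.37 and 22.3 for Hbb-bs and 24.4, 5.87 and 12.5 for Hbb-bt. It was 9.22, 5.88 and 2.52 for Klf1 and 36.9, 0.488 and 0 for Car1, with overlap of the groups in each. The 10 myeloid markers summed to 1053 to 3550, 447 to 10192 and 72.3 to 123 CPM, and the 8 measured T and NK cell markers to 80.7 to 248, 49.1 to 228 and 2.16 to 32.5 CPM, in the same order. The 6 mast cell and basophil markers summed to 2.88 to 102, 23.1 to 274 and 0 to 5.34 CPM, the 6 measured B cell markers to 182 to 13491, 58.9 to 541 and 65.8 to 136 CPM, and Cd34 and Flt3, the gated-out markers, to 29.8 to 96.7, 30.9 to 75.4 and 8.70 to 34.6 CPM. Young 1 held the highest B cell sum, with the light-chain gene Iglc2 at 1.23% of its counts, and the lowest Uqcrc1 level. The part of other cell types, of the number of genes detected and of the Ddx3y difference in the changes of subunit genes was not tested.

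The genes that build and supply the complexes were read from 6 lists chosen with earlier results of these data known. Of their 172 tested genes, edgeR called 0 in aged against young (0.0331% of all genes), 0 in aged+Ri against aged (0%) and 2 in aged+Ri against young, both higher (1.16%, against 1.45% of all genes). At an unadjusted p under 0.05, 11 were higher and 3 lower in aged against young (6.09% and 10.1% of all genes), 6 and 11 in aged+Ri against aged (4.24% and 4.89%), and 25 and 13 in aged+Ri against young (9.06% and 14.4%). DESeq2 called 5, 3 and 15 of them (2.91%, 1.74% and 8.72%, against 4.92%, 2.12% and 12.1% of all genes). In limma-voom, 0, 0 and 4 were called (0%, 0% and 2.33%, against 0.119%, 0.364% and 4.26%). Each share of called genes was below that of all genes, except by edgeR in aged+Ri against aged, where both were 0%. The counts at an unadjusted p lay on both sides of the shares of all genes. Assembly factors (51 tested) had median log2 changes of 0.26, -0.12 and 0.09 in these comparisons. Sco1, a copper chaperone of complex IV, was at 0.222, 0.587 and 0.114 CPM in young, 5.97, 12.6 and 12.8 CPM in aged and 9.40, 3.02 and 2.12 CPM in aged+Ri cells. Young lay below all others, at 5.08 ± 1.25 for age (edgeR adjusted p 0.173). Genes for transcription and maintenance of mitochondrial DNA (23 tested) had medians of 0.42, 0.24 and 0.34, with members on both sides (14 above 0 and 9 below, 12 and 11, and 14 and 9). Mterf4, which acts on mitochondrial ribosome assembly, was at 1.40, 4.36 and 0.342 CPM in young, 16.2, 10.3 and 29.2 CPM in aged and 29.1, 14.1 and 10.2 CPM in aged+Ri cells, at 3.19 ± 0.96 for age (edgeR adjusted p 0.201).

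Genes for processing and translation of mitochondrial RNA (31 tested) had medians of -0.15, -0.24 and -0.09. Hsd17b10, a subunit of mitochondrial RNase P, was at 162, 250 and 233 CPM in young, 881, 549 and 427 CPM in aged and 297, 336 and 426 CPM in aged+Ri cells. Aged lay above both other groups, at 1.52 ± 0.33 for age (edgeR adjusted p 0.145) and -0.81 ± 0.32 for the inhibitor (0.472). Nuclear regulators of mitochondrial biogenesis (16 tested) had medians of -0.65, 0.26 and -0.26. Perm1, a muscle regulator of respiratory genes, had the smallest p of this list in both comparisons with aged cells, at 0.384, 0.102 and 0.228 CPM in young, at most 0.0361 CPM (2 counts) in aged, and 0.814, 0.639 and 0.706 CPM in aged+Ri cells (edgeR adjusted p 0.27 for age and 0.389 for the inhibitor). Ppargc1b, a coactivator of respiratory genes, had it in aged+Ri against young, at 0.667, 0.612 and 0.741 CPM in young and at most 0.0345 CPM (2 counts) in aged+Ri cells (edgeR adjusted p 0.124). Both are near the lower limit of detection. Ubiquinone, cytochrome c and carrier genes (24 tested) had medians of 0.49, -0.05 and 0.37, and pyruvate dehydrogenase and citric acid cycle genes (27 tested) had 0.23, 0.15 and 0.50; 22 of these 27 were above 0 in aged+Ri against young.

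The 2 genes called came 1 each from the last 2 lists. Coq10b, which binds coenzyme Q, was at 4.39, 16.7 and 43.3 CPM in young, 21.7, 46.9 and 27.4 CPM in aged and 304, 108 and 175 CPM in aged+Ri cells. Aged+Ri lay above all other libraries, with changes of 2.61 ± 0.68 against aged (edgeR adjusted p 0.331) and 3.19 ± 0.70 against young (0.0432). Mdh2, the malate dehydrogenase of the citric acid cycle, was at 113, 206 and 104 CPM in young, 325, 222 and 363 CPM in aged and 554, 309 and 438 CPM in aged+Ri cells. Young lay below both groups, and the gene rose by 1.62 ± 0.36 on the log2 scale in aged+Ri against young (edgeR adjusted p 0.0432), the direction also seen in complex II and opposite to the mt-encoded genes.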

How the data were processed

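RNA-seq of 9 libraries was analysed from 1 table of estimated counts deposited by the authors for 21939 gene symbols; 71.6% to 80.9% of a library's values were whole within 0.005, and 76 of the 96 subunit genes had a value that was not. The submitters' processing notes name GRCm38, featureCounts without a version, R 4.2.0, STAR 2.7.0, cutadapt 1.18 and SAMtools 1.14; how values became non-whole is not given in the sources used here. Per the labels' protocols, libraries came from SMART-Seq v4 and Nextera XT, which do not mark strand. Exons of 39 subunit genes overlap another gene, where counts are uncertain.

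Counts were rounded, filtered by edgeR's filterByExpr (15127 genes kept) and scaled by TMM. A quasi-likelihood model of group means (edgeR 4.0.16, R 4.3.3, robust, 6 residual degrees of freedom) gave F-tests with Benjamini-Hochberg adjustment over all genes tested, at 0.05. SE is the log2 change divided by the square root of F. The fit was checked on simulated data with planted changes larger than most reported here. That check does not show how often smaller changes would be called. Positions and transcript lengths came from the GENCODE annotation of GRCm38, promoters from RefSeq. No 2 libraries of a group agreed within sampling noise.

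Named genes were all mt-encoded genes, called genes, isoforms, Sdh genes and, per complex and comparison, the nuclear genes with the highest or lowest log2 change, the smallest p or the highest level per length, and of each list the smallest p. Members and lists were chosen with earlier results of these data known, and roles, motifs and genes named by role after values were seen. Alternatives were DESeq2 1.42.0, its size factors, limma-voom 3.58.1 with sample weights, other filters, only the 2 groups compared, a replicate block, a batch term, library sizes without mt-encoded genes and leaving out each library. Values of 1 further subunit gene are not reported here.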

Additional observations from a re-analysis of the deposited data

How the results depend on the processing

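The 6 subunit genes called in aged+Ri against young kept their direction in each of 18 alternatives, and the call was kept in 14 for mt-Nd1, 13 for mt-Nd2, 10 for mt-Nd4, 7 for mt-Co3, 6 for mt-Co2 and 5 for Atp5b; the cause was not tested. Coq10b and Mdh2 each kept it in 7. Counts of called subunit genes (6) were 24 in DESeq2, 18 in limma-voom, 0 with only the 2 groups, 3 with a batch term, and 0 to 4 with 1 library left out; in aged against young (0) DESeq2 called 1. Over all genes, aged against young (5) gave 744 in DESeq2, 18 in limma-voom, 20 with no filter, 1 with only the 2 groups and 2 to 80 with 1 library left out. Aged+Ri against aged (0) gave 321, 55, 11, 2 and 0 to 6 in the same order, 5 with a batch term and 2 with the replicate block; aged+Ri against young (219) gave 1829 in DESeq2, 644 in limma-voom, 57 with only the 2 groups and 18 to 532 with 1 library left out. Deviations of same-numbered libraries had correlations from -0.07 to 0.12, and those of differently numbered ones ran from -0.16 to 0.16. With 3 libraries a group these values neither show nor exclude pairing. With the replicate block 5 subunit genes were called in aged+Ri against young. The log2 ratio of mt-encoded to nuclear counts was -0.81, -0.35 and -1.16 as a difference of mean log2 CPM, and with 1 library left out ran from -0.61 to -0.46, from -0.29 to -0.03 and from -0.84 to -0.59. Per complex, only complex V in aged+Ri against aged changed sign, from -0.11 to 0.25. With 1 library left out, 33 of 93 tested subunit genes changed sign at least once in aged against young (all nuclear), 17 in aged+Ri against aged (2 of them mt-encoded) and 15 in aged+Ri against young (all nuclear). Among the genes followed singly under each setting, these were Ndufa7 for age (-0.45 to 0.23), Sdha in aged+Ri against young (-0.17 to 0.29) and, in aged+Ri against aged, Sdhd (-0.21 to 0.41), Sdhb (-0.37 to 0.087), Uqcrb (-0.35 to 0.11), Cox6a1 (-0.19 to 0.10), mt-Atp8 (-0.44 to 0.47) and mt-Atp6 (-0.55 to 0.010). Cox6a1 was also -0.045 with no filter, -0.00273 with a stricter one, -0.015 with only the 2 groups and -0.070 with a batch term, and Sdha -0.0530 in limma-voom and -0.059 with a batch term. The number of libraries, 3 a group, limits the precision, and some tissue isoforms also had few counts. The part of depth was not tested.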
